A study of Arabidopsis thaliana with 13 samples.

Results

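The NAC genes of Arabidopsis thaliana encode a large family of plant transcription factors, and the chromatin binding of a blue-light receptor and of PIF transcription factors at these genes is described here. The members were the nuclear protein-coding genes of the RefSeq gene table whose symbol or synonym is NAC or ANAC followed by a number. There were 100 such genes among 27444 nuclear protein-coding genes, 81 found by symbol and 19 by a synonym alone. Whole seedlings of ecotype Columbia, 5 days old and grown in white light, received 16 h of low blue light before a FLAG-tagged protein was precipitated from their chromatin with an anti-FLAG antibody or, as a control, with IgG. The 3 lines carried 3xFlag-6xHis-CRY2 driven by the UBQ10 promoter, PIF4-3xFlag-6xHis, or PIF5-Flash(9xMyc-6xHis-3xFlag). There were 2 anti-FLAG libraries for CRY2, 3 for PIF4 and 2 for PIF5, each line with 2 IgG controls. CRY2 was precipitated from 18 g of material with an additional cross-linker and each PIF from 2 g without it, so CRY2 and the PIFs also differ by protocol. UBQ10 is a broadly active promoter, and binding in whole seedlings cannot be assigned to a cell type.

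NAC proteins bind DNA through a conserved domain near their N-terminus, and the family takes its name from NAM, the ATAF genes and CUC2. Members are known as regulators of leaf senescence, of responses to drought, wounding and hypoxia, of organ boundaries, of xylem and fibre cell walls and of the root cap. PIF4 and PIF5 are bHLH factors that promote elongation and, in darkness, leaf senescence, in which the NAC gene ORE1 is a known target. CRY2 is a cryptochrome that absorbs blue light and is known to contact PIF4 and PIF5.

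One peak list per protein was deposited, made from the pooled replicates. The CRY2 list held 7320 peaks, the PIF4 list 9925 and the PIF5 list 3767. The strength of a peak is its fold enrichment over control as given by the authors, and it is compared within a list only, by its rank or percentile there. A gene is called bound when the summit of a peak lies nearer to it than to any other protein-coding gene and at most 3 kb away. Genes that do not code for protein were left out of this rule. Such a gene lay nearer to the strongest CRY2 summit at 2 bound NAC genes, ANAC019 and ANAC083. The same held for PIF4 at 4 genes (ANAC019, ANAC083, XND1 and ANAC099) and for PIF5 at 1 (ANAC083). The deposited lists give no spread between replicates and no read depth, so intervals below cover counting error over genes only, and no list was tested.

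About 2 in 5 NAC genes carried PIF4. PIF4 was bound at 39 of the 100 (95% Wilson interval 30.0 to 48.8%), against 29.0% of all nuclear protein-coding genes. CRY2 was bound at 28 (20.1 to 37.5%), against 22.4%, and PIF5 at 18 (11.7 to 26.7%), against 12%. At least 1 protein was bound at 46 NAC genes, against 38.0% of all genes, and 54 had none. The share was above that of all genes for each protein, and the interval included the share of all genes for CRY2 and PIF5 but not for PIF4.

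**Figure D1:**
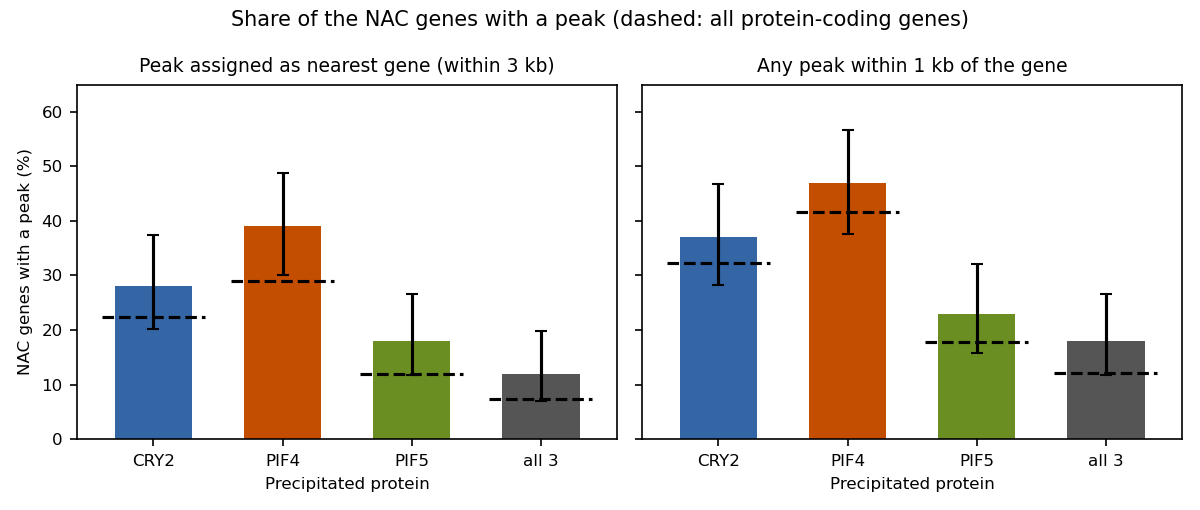
Percent of the 100 NAC genes with a peak of CRY2, PIF4, PIF5 or all 3 proteins (bars, with 95% Wilson intervals) under both rules of assignment, with the percent of all nuclear protein-coding genes as dashed lines. The dashed line lies below the bar in every case, and outside the interval only for PIF4 under the nearest-gene rule (29.0% against an interval of 30.0 to 48.8%).

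A second rule counted every peak that overlapped a gene or the 1 kb on either side of it. By it PIF4 was at 47 NAC genes against 41.7% of all genes, CRY2 at 37 against 32.3%, PIF5 at 23 against 17.8%, and at least 1 protein at 54 against 51.4%. All these shares of all genes lie within the intervals of the NAC genes. By this rule 10 genes with no assigned peak gained at least 1 protein, because they lay within 1 kb of a peak given to a neighbour. They were ANAC005, ANAC010, ANAC027, NAP, ANAC045, ANAC076, ANAC077, ANAC085, ANAC095 and ANAC103. Some genes already bound gained a further protein in the same way, as RD26 gained PIF4. In the other direction, ANAC046 and ANAC100 were bound only through summits 2910 and 1476 bp away.

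NAC genes have more space around them than most genes. The gene-free space on both sides together had a median of 3464 bp for the 99 NAC genes where it could be measured, against 1856 bp for all genes, while gene length was similar (median 1942 against 2078 bp). Of these, 47 had at least 4027 bp. Among genes with that much space PIF4 was bound at 46.8% of NAC genes and 39.5% of all genes, CRY2 at 34.0% and 25.4%, and PIF5 at 17.0% and 17.0%. Among genes with 1856 to 4025 bp PIF4 was bound at 35.7% of 28 NAC genes and 33.6% of all genes. With 702 to 1855 bp the share of the family was lower than that of all genes for PIF4 (18.8% of 16 NAC genes against 24.1%) and CRY2 (18.8% against 20.8%). With at most 701 bp PIF4 was bound at 37.5% of 8 NAC genes and 18.9% of all genes. The difference for PIF4 and CRY2 thus ran both ways across classes of space. PIF5 was bound at 5 of the 28 NAC genes with 1856 to 4025 bp (17.9%, against 13.7% of all genes). With 702 to 1855 bp PIF5 was at 3 of 16 (18.8% against 10.05%), and with at most 701 bp at 2 of 8 (25% against 7.2%). The part of flanking space in the shares of the family was not tested. The WRKY and MYB families, other transcription factor families picked by the same kind of name rule, also have wide spaces (median 4038 and 5606 bp). PIF4 was bound at 41 of 72 WRKY genes (56.9%) and 52 of 125 MYB genes (41.6%), and PIF5 at 30 (41.7%) and 21 (16.8%). The difference between families was not tested.

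CRY2 was found most often at the NAC genes that carried both PIFs. PIF4 and PIF5 were both bound at 18 NAC genes, against 11.2% of all genes, and every NAC gene with PIF5 also had PIF4 (among all genes, 93.6% of those with PIF5). CRY2 and PIF4 were both bound at 21, against 13.8%, and all 3 proteins at 12, against 7.27% of all genes. By the 1 kb rule all 3 proteins were at 18 NAC genes, against 12.2%. CRY2 was bound at 12 of the 18 NAC genes with both PIFs (66.7%, interval 43.7 to 83.7%), at 9 of the 21 with PIF4 alone of the PIFs (42.9%, 24.5 to 63.5%) and at 7 of the 61 with no PIF (11.5%, 5.67 to 21.8%). The same shares over all genes were 64.8%, 36.5% and 11.7%, each inside the interval of the family.

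The median strongest peak of the bound NAC genes lay above the middle of each list. Only the strongest peak of a gene counts here, which favours genes with several peaks. NAC genes carried 41 CRY2 peaks at 28 genes and 54 PIF4 peaks at 39. All bound genes carried 7315 CRY2 peaks at 6156 genes and 9722 PIF4 peaks at 7960. The part of peak number in these medians was not tested. The median strongest peak was 2.45 for CRY2 at the 28 bound NAC genes (range 2.07 to 4.77), against 2.30 over all bound genes. For PIF4 it was 2.91 at 39 genes (1.94 to 4.88), against 2.53, and for PIF5 2.60 at 18 genes (2.17 to 4.13), against 2.44. In percentiles of their own list these medians were 70.1 (CRY2), 71.1 (PIF4) and 64.5 (PIF5), where all bound genes had 53.0, 54.1 and 53.2. The strongest 10% of CRY2 peaks included those at 7 NAC genes (25.0% of those bound, against 11.5% of all bound genes): ANAC102, ANAC083, ANAC019, ANAC055, ATAF2, ANAC051 and ANAC067. For PIF4 it was 6 genes (15.4% against 11.7%), ANAC014, ANAC004, ANAC089, ATAF1, ANAC075 and ANAC102, and for PIF5 3 genes (16.7% against 10.7%), ANAC004, ANAC014 and ANAC062.

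**Figure D2:**
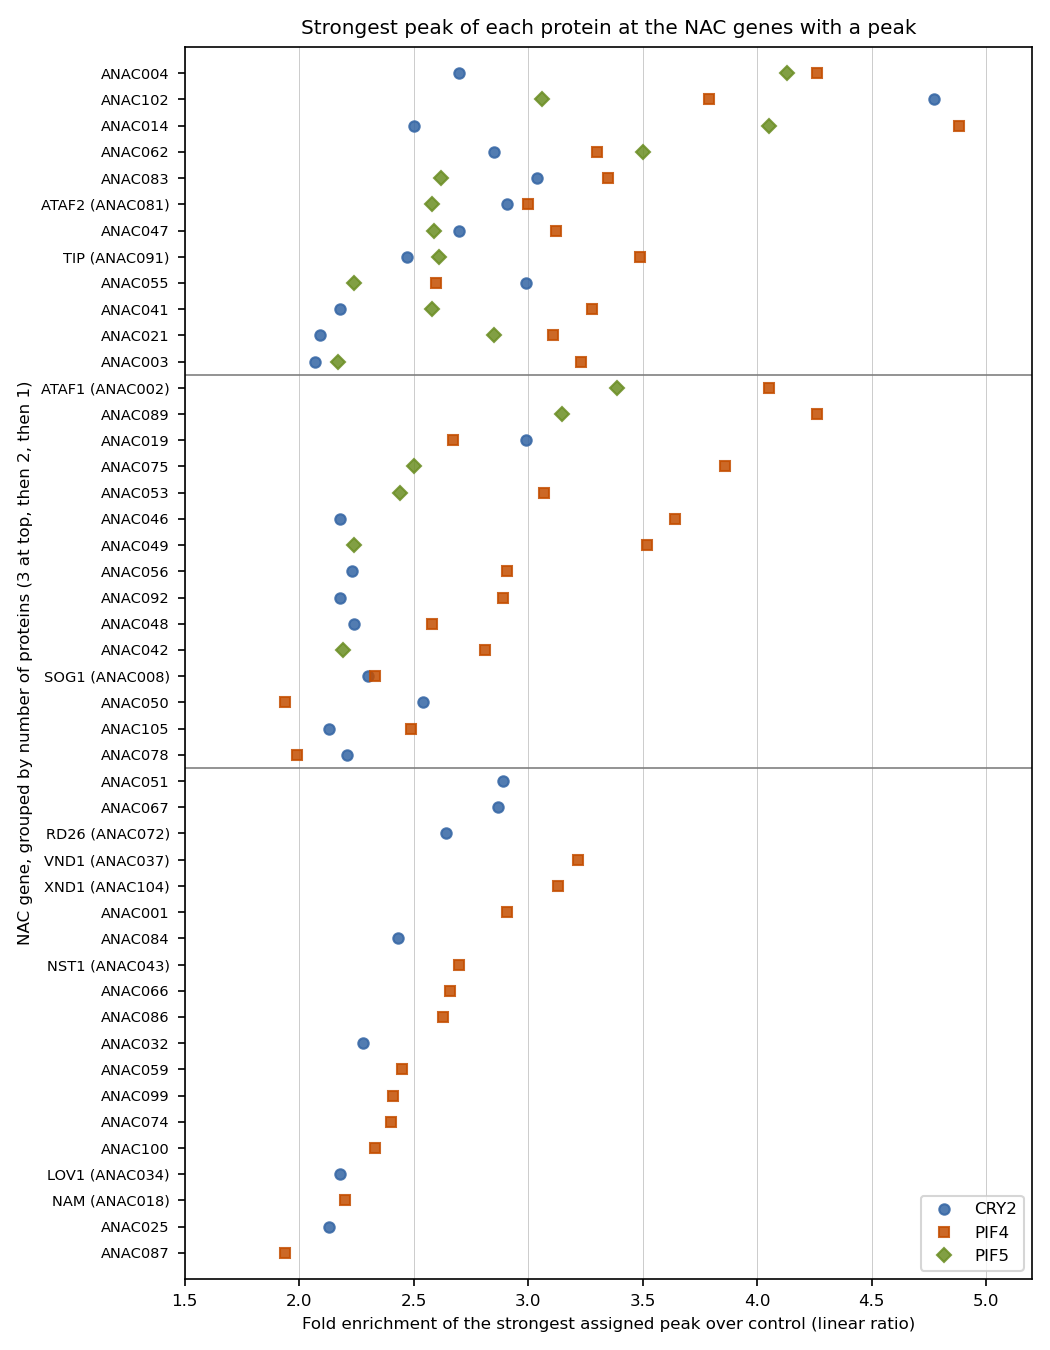
Fold enrichment over control (linear ratio) of the strongest assigned peak of CRY2 (circles), PIF4 (squares) and PIF5 (diamonds) at each of the 46 bound NAC genes, grouped by how many proteins were bound. The 12 genes with all 3 proteins are at the top, with ANAC102 as the highest CRY2 value (4.77) and ANAC014 as the highest PIF4 value (4.88); values of different proteins are not on a common scale.

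The stress genes of the ATAF and RD26 subgroups included no unbound gene, where 62.0% of all genes were unbound. These 7 genes are induced by drought, abscisic acid, jasmonate or wounding. CRY2 was bound at 6 (22.4% of all genes), PIF4 at 5 (29.0%) and PIF5 at 4 (12%). By the 1 kb rule CRY2 and PIF4 were at all 7 (32.3 and 41.7% of all genes) and PIF5 at 5 (17.8%). Their median CRY2 peak was 2.95, against 2.30 over all bound genes.

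ANAC102 (AT5G63790), known from the response to low oxygen, had the strongest CRY2 peak of the family. Its fold enrichment was 4.77, rank 36 of 7320, at chromosome 5, 25526048 to 25528700. The PIF4 peak was 3.79 (rank 827 of 9925, 25526499 to 25528680) and the PIF5 peak 3.06 (rank 649 of 3767, 25526120 to 25528597). All 3 summits lay inside the gene, the PIF summits 37 bp apart and the CRY2 summit 416 bp from that of PIF4. The peaks of the 3 proteins thus covered nearly the same stretch.

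ATAF1 (AT1G01720), a regulator of responses to drought and abscisic acid, had strong PIF4 and PIF5 peaks inside the gene. They were 4.05 (rank 503, chromosome 1, 267733 to 268910) and 3.39 (rank 418, 267901 to 270417). It counted as unbound by CRY2 only because the summit of a broad CRY2 peak of 4.92 (267543 to 270498), which overlaps both PIF peaks, lay in the neighbouring gene AT1G01725. With that peak, ATAF1 and ANAC102 were the NAC genes with the strongest CRY2 peaks within 1 kb.

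ATAF2 (AT5G08790), responsive to wounding and pathogens, had overlapping peaks with summits inside the gene, CRY2 at 2.91, PIF4 at 3.00 and PIF5 at 2.58. ANAC032, the remaining gene of the ATAF subgroup, had an assigned CRY2 peak of 2.28 inside the gene. PIF4 and PIF5 peaks of 3.58 and 2.44 that overlapped it were assigned to the neighbouring gene PBC2. All 4 ATAF genes therefore lay within 1 kb of peaks of the 3 proteins.

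The genes of the RD26 subgroup, which act in drought, abscisic acid and jasmonate responses, had more than 1 assigned peak each, most of them at ANAC055. ANAC055 (AT3G15500) had 4 CRY2, 3 PIF4 and 2 PIF5 peaks assigned to it. Its strongest CRY2 peak, 2.99 inside the gene at chromosome 3, 5235342 to 5236060, overlapped no PIF peak. Peaks on both sides did overlap: CRY2 2.41 and 2.44 with PIF4 2.60 and PIF5 2.24 at one edge, and CRY2 2.36 with PIF4 2.57 and PIF5 2.08 at the other. ANAC019 (AT1G52890) had overlapping CRY2 and PIF4 peaks of 2.99 and 2.67 outside the gene (905 and 879 bp away) and no PIF5 peak. A further PIF4 peak of 2.02 lay 2480 bp from ANAC019. RD26 (AT4G27410) had CRY2 peaks of 2.64 outside and 2.30 inside the gene. A PIF4 peak of 2.65 that overlapped the stronger CRY2 peak was assigned to AT4G27415. PIF5 was absent within 1 kb of ANAC019 and RD26, in contrast to ANAC055.

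**Figure D3:**
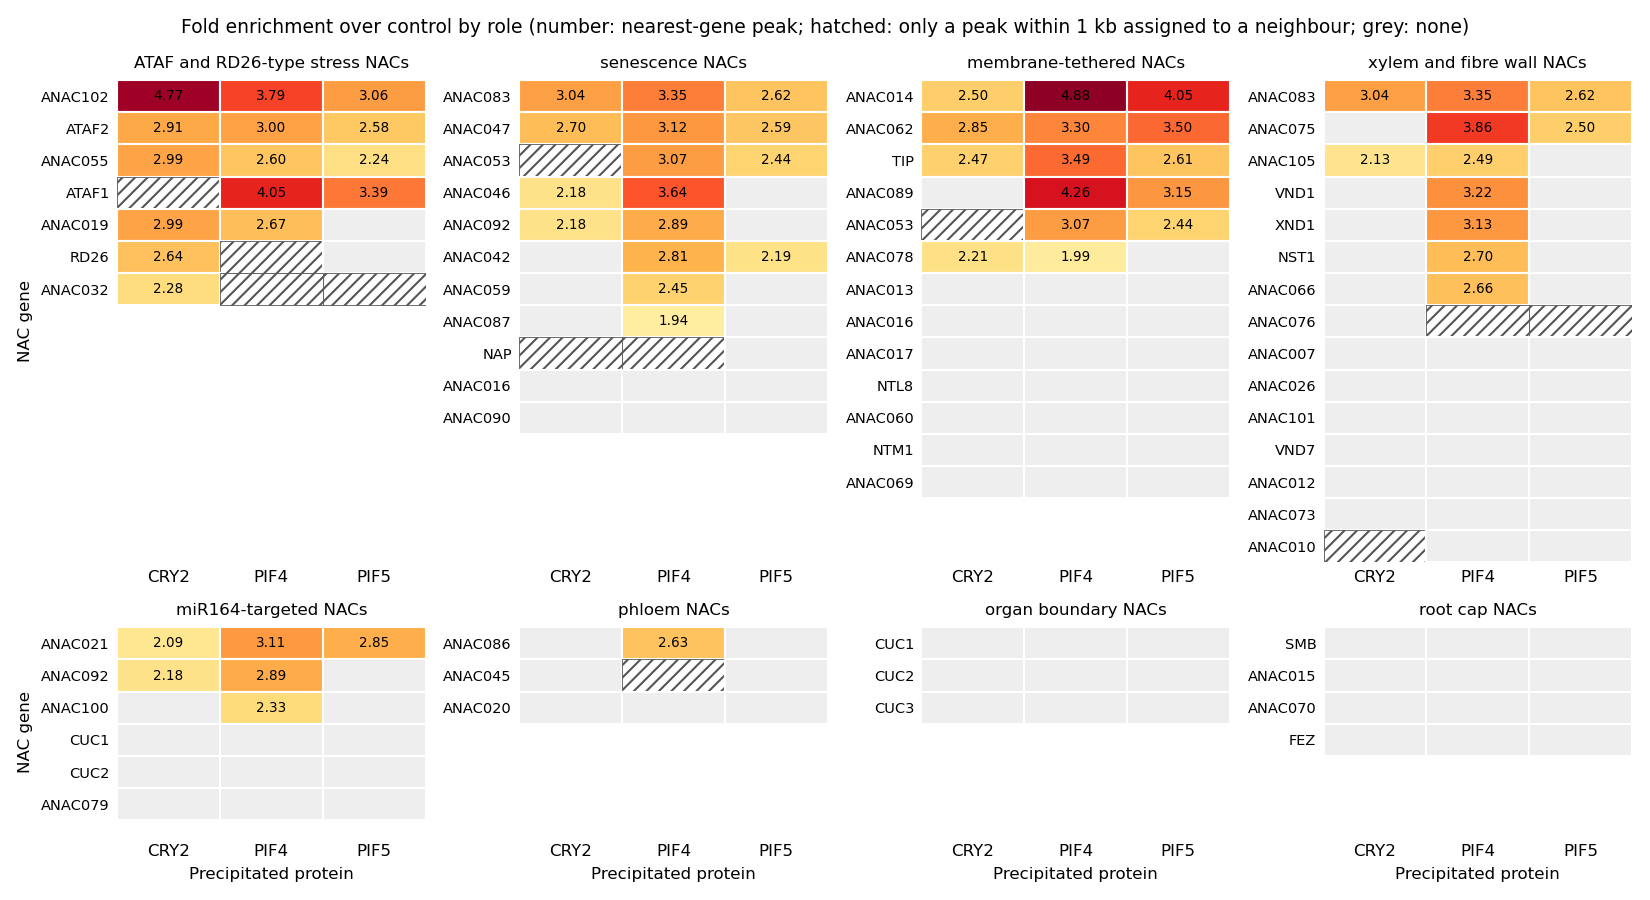
Fold enrichment of the strongest assigned peak of each protein (columns) at each NAC gene (rows) of the 8 role lists; darker cells are stronger, hatched cells have only a peak within 1 kb that was not assigned to the gene, and grey cells have neither. All 7 stress genes have CRY2 and PIF4 by 1 rule or the other, and the organ boundary and root cap genes have no peak.

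Among 11 regulators of leaf senescence, PIF4 was bound at 8 (29.0% of all genes), CRY2 at 4 (22.4%) and PIF5 at 4 (12%). Both PIFs with CRY2 were at VNI2 (ANAC083, AT5G13180), which prolongs leaf life and interacts with the xylem regulator VND7, and at ANAC047 (AT3G04070), known from the upward leaf movement of flooded plants. ANAC047 had CRY2 at 2.70, PIF5 at 2.59 and PIF4 at 3.10 on one side, and its strongest PIF4 peak, 3.12, on the other. The only 3 with none (62.0% of all genes) were NAP, ANAC016 and ANAC090. NAP, a promoter of senescence, lay within 1 kb of a PIF4 peak of 2.87 and a CRY2 peak of 2.07 that were assigned to AT1G69485.

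ORE1 (ANAC092, AT5G39610), which promotes leaf death and is held down by miR164, was bound by PIF4 and CRY2 in peaks that did not overlap. The PIF4 peak was 2.89 (rank 2932 of 9925, chromosome 5, 15859617 to 15861608), with its summit 1008 bp outside the gene. The CRY2 peak was 2.18 (rank 4592 of 7320, 15859091 to 15859544), inside the gene. The CRY2 peak ended at 15859544, close to the start of the PIF4 peak at 15859617, while their summits lay 1760 bp apart. No PIF5 peak lay within 1 kb of ORE1. Its close relative ORS1 (ANAC059, AT3G29035) had PIF4 alone, at 2.45.

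Other senescence genes differed in strength and position. JUB1 (ANAC042), which delays senescence, had PIF4 at 2.81 and PIF5 at 2.19, with summits 694 and 695 bp outside the gene, and no CRY2 peak within 1 kb. At VNI2 a PIF4 peak of 3.35 spanned 5585 bp (chromosome 5, 4192801 to 4198385), including the gene, and covered 3 CRY2 peaks of 2.76, 3.04 and 2.08 and a PIF5 peak of 2.62. Its PIF4 and PIF5 summits lay over 2 kb from the gene, 2537 and 2594 bp away. ANAC087 had a PIF4 peak of 1.94, near the bottom of the list.

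A further list held senescence genes that are no NAC genes. Of 22 regulators, chlorophyll breakdown genes and NAC targets, PIF4 was bound at 14 (63.6%, against 29.0% of all genes), CRY2 at 8 (36.4% against 22.4%) and PIF5 at 8 (36.4% against 12%), and 7 had none (62.0% of all genes). HAI1 (SAG113), a phosphatase gene, had 2.47 for CRY2, 4.26 for PIF4 and 2.87 for PIF5. The ethylene factor EIL1 had a PIF4 peak of 4.24 and the abscisic acid factor ABI5 one of 4.0. NYE1, a chlorophyll breakdown gene, had 2.62 for CRY2 and 2.95 for PIF4. EIN3, ABI5, EEL and ORE1 were listed as genes already known as PIF targets in darkness, so the PIF counts of these lists are no independent evidence. SAG12, BFN1 and PPH, which act late in senescence or in chlorophyll breakdown, had no peak within 1 kb.

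**Figure D4:**
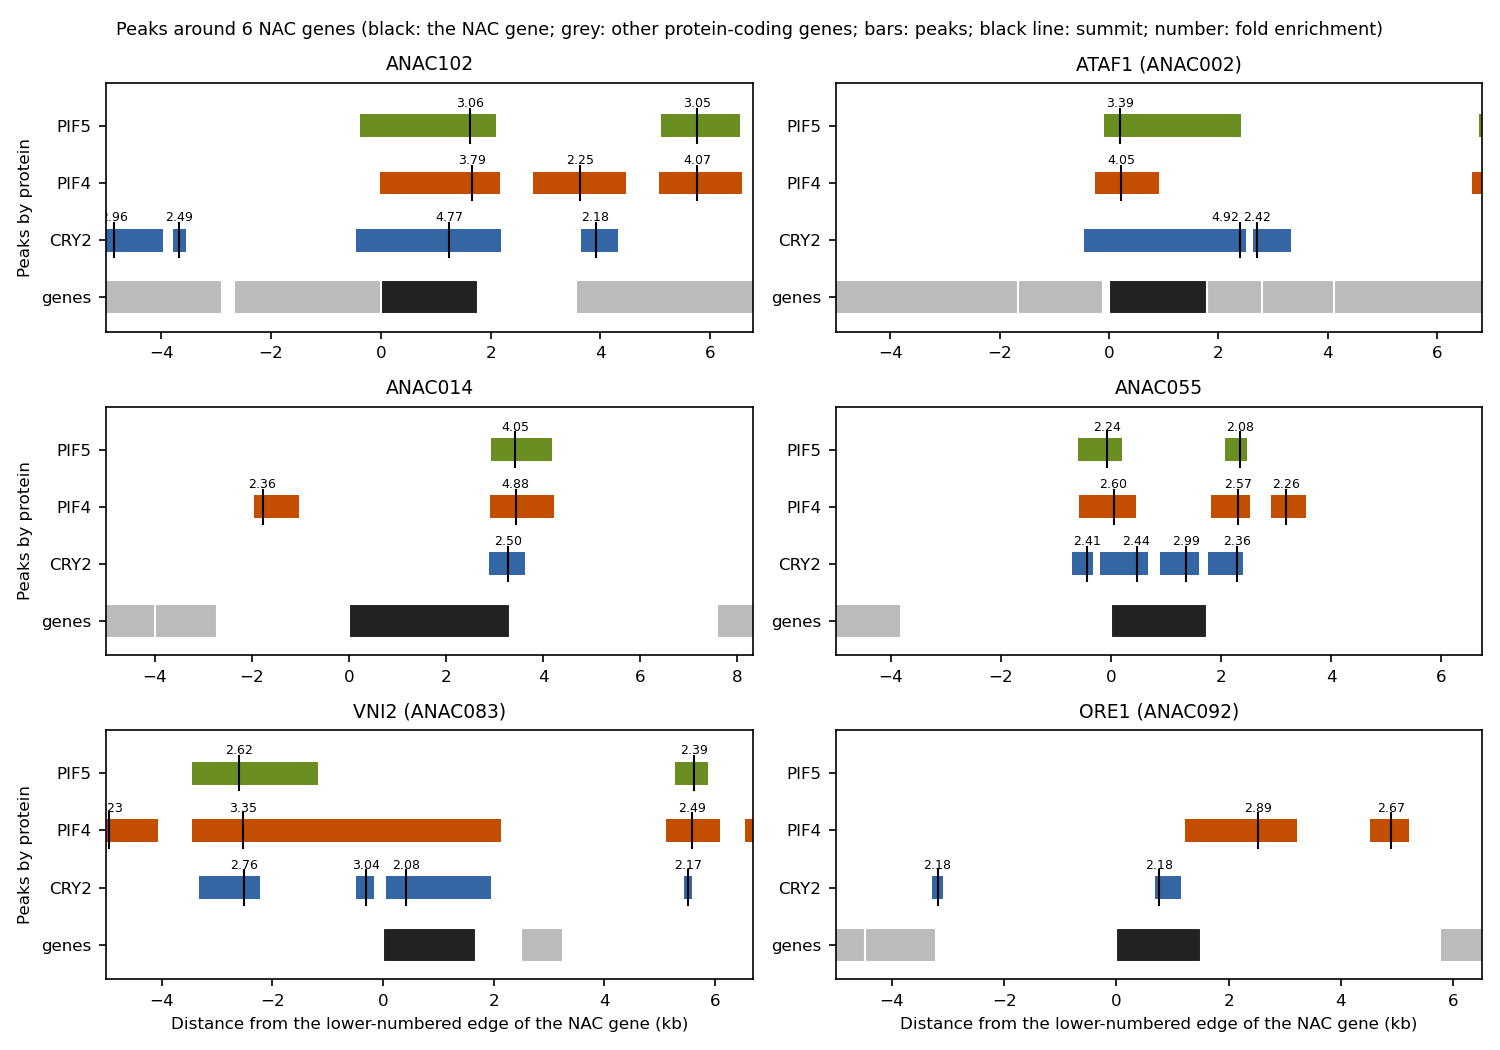
Peaks of CRY2, PIF4 and PIF5 (bars, with the summit as a black line and the fold enrichment as a number) around 6 NAC genes (black boxes) and their protein-coding neighbours (grey boxes), against the distance from the lower-numbered edge of the NAC gene in kb. Peaks of the 3 proteins coincide at ANAC102 and ANAC014, the CRY2 summit beside ATAF1 lies in the next gene, and the CRY2 and PIF4 peaks at ORE1 do not overlap.

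NAC proteins with a membrane anchor are released by cleavage under stress. The list held 14 such genes, of which 13 met the name rule. PIF4 was bound at 6 of them (29.0% of all genes), PIF5 at 5 (12%) and CRY2 at 4 (22.4%), and 7 had none (62.0%). ANAC014 (AT1G33060) had the strongest PIF4 peak of the family, 4.88 (rank 49 of 9925, chromosome 1, 11978217 to 11979520). Its PIF5 peak was 4.05 (rank 166, 11978225 to 11979496), with a summit 15 bp from that of PIF4, and its CRY2 peak was 2.5 (11978189 to 11978937). The PIF summits lay 119 and 104 bp outside the gene and the CRY2 summit inside it.

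ANAC062 (NTL6, AT3G49530), which acts in cold and endoplasmic reticulum stress, had 2.85 for CRY2, 3.30 for PIF4 and 3.5 for PIF5 in overlapping peaks. TIP (ANAC091, AT5G24590), an interactor of a viral coat protein, had 2.47, 3.49 and 2.61, with the 3 summits within 39 bp of each other. ANAC089 (AT5G22290), of the endoplasmic reticulum stress response, had PIF4 at 4.26 (rank 316) and PIF5 at 3.15 inside the gene and no CRY2 peak within 1 kb. The related pair ANAC053 and ANAC078, which activate proteasome genes, had different assigned peaks. ANAC053 had PIF4 at 3.07 and PIF5 at 2.44, and a CRY2 peak of 2.89 that overlaps both was assigned to ANAC051. ANAC078 had CRY2 at 2.21 and PIF4 at 1.99 and no PIF5 peak within 1 kb. ANAC013 and ANAC017, which relay mitochondrial stress to the nucleus, had no peak within 1 kb, nor had ANAC016, ANAC060, ANAC069, NTL8 or NTM1.

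The regulators of xylem and fibre walls were bound by PIF4 more often than by CRY2. Of 15 genes, PIF4 was bound at 7 (29.0% of all genes), CRY2 at 2 (22.4%) and PIF5 at 2 (12%), and 8 had none (62.0%). VND1 (ANAC037), a xylem vessel factor, had PIF4 at 3.22 with the summit 13 bp outside the gene, and XND1 (ANAC104), a repressor of xylem differentiation, had PIF4 at 3.13. NST1 and NST2 (ANAC066), which switch on fibre and anther walls, had PIF4 at 2.70 and 2.66 inside the gene. Their relative NST3 (ANAC012) had no peak within 1 kb. ANAC075, an activator of VND7, had PIF4 at 3.86 and PIF5 at 2.5, with summits 20 bp apart. VND7 itself, VND4 (ANAC007), VND5 (ANAC026) and VND6 (ANAC101) had none. VND2 (ANAC076) lay within 1 kb of PIF4 and PIF5 peaks of 3.85 and 2.1 that were assigned to AT4G36170. CRY2 was bound only at VNI2 and ANAC105, both with PIF4. Over all genes PIF4 was bound at 7960 and together with CRY2 at 3776, so PIF4 without CRY2 was the commoner state there too. Whether it was commoner here than at other genes was not tested.

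For each protein, downstream wall genes that are no NAC genes were bound at shares near those of all genes. Of 13 MYB factors, cellulose synthases, xylem proteases and related genes, PIF4 was bound at 3 (23.1%, against 29.0% of all genes), CRY2 at 2 (15.4% against 22.4%) and PIF5 at 2 (15.4% against 12%). None was bound at 10 of the 13, where 62.0% of all genes had none. By the 1 kb rule PIF4 was at 5 (41.7% of all genes), PIF5 at 3 (17.8%) and CRY2 at 2 (32.3%), and 8 had none (48.6%). LBD18 had peaks of all 3 proteins (2.41 for CRY2 and 3.35 for PIF4), but within 1 kb only PIF4 at 2.45 and PIF5 at 2.08. The xylem protease gene XCP2 had PIF4 at 3.93 and PIF5 at 2.40, and MYB63 had CRY2 at 2.47 and PIF4 at 1.99. MYB46, the main target of the VND and NST factors, had none assigned but lay within 1 kb of CRY2 (2.37), PIF4 (3.56) and PIF5 (2.72) peaks of a neighbour.

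No peak was found at the developmental boundary and root cap genes. CUC1, CUC2 and CUC3, which separate organs at the shoot apex, and SMB, BRN1 (ANAC015), BRN2 (ANAC070) and FEZ, which shape the root cap, had no peak of any protein within 1 kb. Of all genes, 48.6% had none within 1 kb, and the difference from these 7 genes was not tested. Of 3 phloem genes, ANAC086 had PIF4 at 2.63 and lay within 1 kb of a PIF4 peak of 3.68 assigned to a neighbour, ANAC045 lay within 1 kb of a PIF4 peak of 2.98 assigned to AT3G03210, and ANAC020 had none. Of 6 targets of miR164, PIF4 was bound at 3 (29.0% of all genes), CRY2 at 2 (22.4%) and PIF5 at 1 (12%), and 3 had none (62.0%). The bound genes were NAC1 (ANAC021, AT1G56010), which relays auxin to lateral roots, ORE1, and ANAC100 with PIF4 alone at 2.33. NAC1 had CRY2 at 2.09, PIF4 at 3.11 and PIF5 at 2.85. The PIF summits there lay 12 bp apart, and the CRY2 summit was 2180 bp from that of PIF4.

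The 44 NAC genes in no role list included the strongest PIF5 peak of the family. Of these genes, CRY2 was bound at 12 (22.4% of all genes), PIF4 at 12 (29.0%) and PIF5 at 4 (12%), and 27 had none (62.0%), all near the shares of all genes. Of the 56 listed genes, CRY2 was bound at 16, PIF4 at 27 and PIF5 at 14. ANAC004 (AT1G02230) had PIF5 at 4.13 (rank 149 of 3767, chromosome 1, 436670 to 437614), PIF4 at 4.26 (rank 316, 436626 to 437685) and CRY2 at 2.70 (436707 to 437272). The summits of these peaks lay in the 937 bp between ANAC004 and ANAC005, so the peaks may belong to either gene. ANAC041 had overlapping peaks, with CRY2 at 2.18, PIF4 at 3.28 and PIF5 at 2.58. ANAC003 had 2.07, 3.23 and 2.17, where the summit of the strongest PIF4 peak lay 2506 bp from the PIF5 summit. A weaker PIF4 peak of 2.85 at ANAC003 overlapped its CRY2 and PIF5 peaks. SOG1, the main regulator of the response to DNA damage, had CRY2 at 2.30 and PIF4 at 2.33, and LOV1, which delays flowering, had CRY2 alone at 2.18.

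The median PIF4 peak was lower at genes with PIF4 alone than at genes with all 3 proteins, a difference that was not tested. The 12 NAC genes with PIF4 alone had a median of 2.54 (range 1.94 to 3.22), and none of their strongest PIF4 peaks overlapped a peak of another protein. VND1, XND1 and ANAC001 (2.91) were the highest. At the 12 genes with all 3 proteins the PIF4 median was 3.29 (2.60 to 4.88), so the ranges overlapped. CRY2 alone was bound at 7 NAC genes with a median of 2.43 (2.13 to 2.89), led by ANAC051 (2.89), ANAC067 (2.87) and RD26 (2.64). At 4 of the 7 the CRY2 peak overlapped a PIF peak that had been assigned to a neighbour. At ANAC051, whose RefSeq symbol is NAC052, that neighbour was the NAC gene ANAC053, which lies 14 bp away. PIF5 alone was bound at 0 NAC genes (0.277% of all genes).

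Some NAC genes lie side by side. There were 12 pairs of members with at most 1 gene between them. They involved 21 genes, and 3 pairs had the same set of proteins by the nearest-gene rule, 2 of these because neither gene was bound. The third, ANAC003 and ANAC004, had all 3 proteins at both genes. At 5 of the 12 pairs a peak lay within 1 kb of both genes: ANAC004 and ANAC005, ANAC048 and ANAC049, ANAC050 and ANAC051, ANAC051 and ANAC053, and ANAC077 and ANAC078. The 6103 bp between ANAC046 and ANAC047 held 3 PIF4 summits (3.64, 3.12 and 2.61), 2 CRY2 summits (2.18 each) and 2 PIF5 summits (2.44 and 2.1). The 7235 bp between ANAC055 and ANAC056 held 3 PIF4, 2 CRY2 and 1 PIF5 summits, and the 6333 bp between NAM (ANAC018) and ANAC019 held 4 PIF4 summits of 2.02 to 2.20 and no other. In these wide spaces a peak is assigned to a gene by distance alone.

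Where 2 proteins were bound at a NAC gene, their peaks mostly overlapped. CRY2 and PIF4 peaks overlapped by at least 1 bp at 20 of 21 genes (95.2%, against 89.7% of all genes with both), the exception being ORE1. CRY2 and PIF5 peaks overlapped at 11 of 12 (91.7% against 89.7%), the exception being NAC1, and PIF4 and PIF5 peaks at 18 of 18 (against 98.3%). The strongest PIF4 and PIF5 summits were a median of 35 bp apart, against 30 bp over all genes. CRY2 summits lay a median of 243 bp from PIF4 summits and 295.5 bp from PIF5 summits, against 164 and 133 bp over all genes. A CRY2 summit came within 100 bp of a PIF4 summit at 10 of the 21 genes (47.6% against 50.1%) and of a PIF5 summit at 4 of 12 (33.3%, interval 13.8 to 60.9%, against 51.9%).

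CRY2 and PIF4 summits outside NAC genes lay farther from the gene than over all bound genes. For PIF5 this held over all peaks but not for the strongest peaks. Among strongest peaks, 13 of 28 CRY2 summits were inside the gene (46.4%, interval 29.5 to 64.2%, against 61.6% over all bound genes). For PIF4 it was 13 of 39 (33.3% against 34.0%) and for PIF5 7 of 18 (38.9% against 36.4%). More than 1 kb from the gene lay 10 of the 39 PIF4 summits (25.6%, against 13.0%), 3 of the 28 CRY2 summits (10.7% against 6.22%) and 1 of the 18 PIF5 summits (5.56% against 12.9%). Outside the gene, the median distance was 642 bp for CRY2 (189 bp over all bound genes), 749.5 bp for PIF4 (299 bp) and 245 bp for PIF5 (299 bp). With all peaks of a gene taken, it was 571 bp for CRY2 (225.5 bp), 805 bp for PIF4 (351 bp) and 584 bp for PIF5 (324 bp). The share of all PIF4 summits inside the gene was 24.1%, against 34.6% over all bound genes. The wider spaces around NAC genes stand beside these distances, and their part was not tested. Which side of the gene is the promoter was not analysed here, because the gene table used has no strand.

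**Figure D5:**
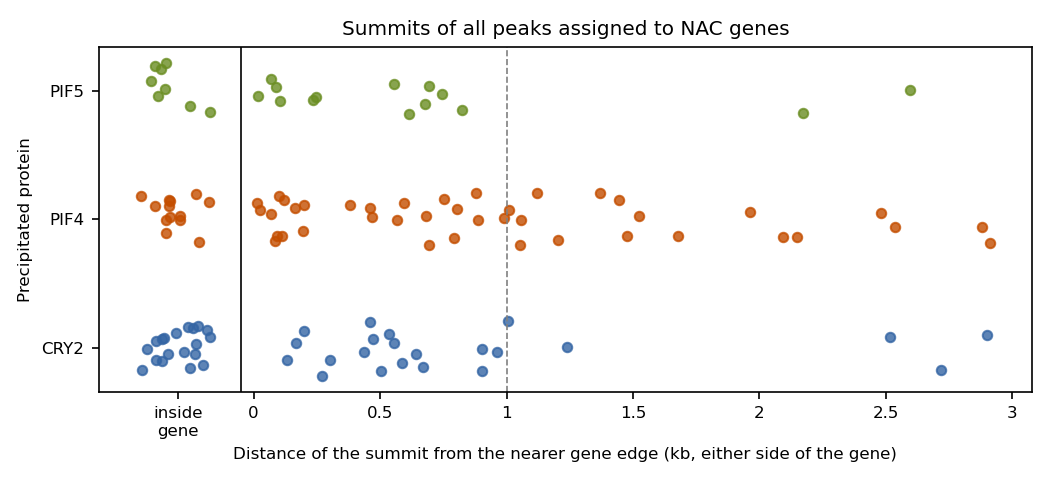
Distance in kb from the nearer gene edge of the summits of all 117 peaks assigned to NAC genes (41 CRY2, 54 PIF4 and 22 PIF5), with summits inside the gene at the left and each point 1 peak; the spread of points within a row has no meaning. PIF4 summits reach farther out than those of PIF5, with 17 of 54 beyond 1 kb (dashed line) against 2 of 22.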

How the data were processed

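Chromatin immunoprecipitation sequencing was done on 13 libraries. MACS2 2.0.10, Bowtie2 2.1.0, CASAVA 1.8.2 and the build TAIR10 are named, without roles, per the submitters' processing notes. Each deposited list pools the replicates, as its peak names (RepAll) read. The authors gave each peak a fold enrichment (a ratio), a deposited -log10 p, a deposited score that is that value times 10 without its decimals, and the other measures of start, end and summit offset. A constant stood in place of a q value. Read depth: not given in the sources used here.

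Python 3.11.15 with numpy 2.4.6, pandas 2.3.3, scipy 1.17.1 and matplotlib 3.10.9 was used. RefSeq's gene table (TAIR10.1) gave names, neighbours and distances, and none of its coordinates is printed. A summit inside overlapping genes counted for each. The steps were tested on simulated positions. Groups come from the library titles. Promoter letters were planned but not analysed here.

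The members, the role lists and the rules were chosen with earlier results of these data known. Named genes were those with all 3 proteins, the 5 strongest per list, the 3 strongest with 1 protein alone, ORE1, members sharing a peak and up to 4 per role list; further names were chosen after their values were seen. Alternatives covered assignment, stricter lists, lists of equal size (3767 peaks), overlap and members by symbol.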

Additional observations from a re-analysis of the deposited data

How the results depend on the processing

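Of 39 alternative values for 13 results, 27 stayed near the main value (counts within 1.5 times, medians and shares within their 95% interval) and 12 did not; the cause was not tested beyond the smaller number of peaks or pairs that each stricter rule keeps. With only summits outside genes within 1 kb, the NAC genes bound numbered 15 for CRY2, 20 for PIF4, 10 for PIF5 and 5 for all 3 proteins (8.13, 16.8, 6.41 and 2.42% of all genes). The 5 were among the 12 of the main rule. With the upper 50% of each list, CRY2 was at 16 NAC genes (12.02% of all genes) and PIF4 at 30 (15.9%). PIF5 was then at 14 (6.42%) and all 3 proteins at 8 (2.96%). With lists of equal size CRY2 was at 18 (12.4%), PIF4 at 24 (12.3%) and all 3 proteins at 9 (4.19%). For the upper 50% and the lists of equal size, only the CRY2 counts and PIF4 at equal size were not within 1.5 times the main count. With only summits outside genes, none of the counts was within 1.5 times the main count. Overlap of at least 50% of both peaks left 11 CRY2 and PIF4 genes (52.4%, against 56.4% of all genes with both), 11 PIF4 and PIF5 genes (61.1% against 77.6%) and 6 CRY2 and PIF5 genes (50% against 68.4%), shares below those of all genes where overlap by 1 bp gave shares above them. Summits within 100 bp left 10 CRY2 and PIF4 genes and 4 CRY2 and PIF5 genes. Of the 12 genes with all 3 proteins, 9 remained at equal list size, 8 in the upper 50% and 11 by the 1 kb rule, which lost VNI2 and added 7. Searches of the promoters for motifs were not run. No paired analysis was possible because each list pools its replicates, and for the same reason no replicate could be left out.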
